A study of Homo sapiens with 12 samples.

Results

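The S100 calcium-binding protein genes were followed across 4 related human cell lines of breast epithelial origin, the MCF10 lines. The set consisted of 10 genes, taken by symbol from a deposited table of 59427 gene symbols: S100A1, S100A2, S100A4, S100A6, S100A7, S100A8, S100A9, S100A11, S100A14 and S100A16. All 10 were found, and 9 of them reached 1 TPM (transcripts per 1000000, a level corrected for transcript length) in at least 1 line. S100A7 did not, and S100A1 did so only through MCF10DCIS, the line in which it was high.

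S100 proteins are small proteins that bind calcium through a pair of EF-hand loops, mostly act as dimers, and change shape on binding so that they can grip partner proteins. Inside the cell they act on annexins, the cytoskeleton and transcription regulators. Some are released and act as alarm signals on receptors such as RAGE (gene AGER) and the Toll-like receptor TLR4. Most of the human genes lie in one cluster on the long arm of chromosome 1, beside the genes of the cornified envelope of skin, and several of them are used as markers of breast and other epithelial tumours.

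Bulk RNA-seq of total RNA was done on 12 libraries, 3 from each line. MCF10A is a non-tumorigenic immortalised mammary epithelial line, MCF10AT1 carries an activated HRAS (HRAS G12V), MCF10DCIS stands for ductal carcinoma in situ, and MCF10CA1a is the metastatic line. The 3 derived lines descend from MCF10A and all 3 are HRAS-derived, so the HRAS change is not particular to MCF10AT1. All 4 lines were grown alike, with EGF, insulin, hydrocortisone, cholera toxin and horse serum in the medium. Each stage is represented by 1 line, so a difference between stages cannot be told apart from a difference between these particular lines. The deposited values are the authors' mean TPM per line, so they carry no error. No test was possible, and whether a difference exceeds the variation of the 3 libraries of a line is unknown. Below, a gene is called higher or lower when its difference in log2(TPM + 1) is at least 1, which is 2-fold. The depth of the libraries is unknown.

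HRAS itself was at 50.8 TPM in MCF10A, 126 TPM in MCF10AT1, 276 TPM in MCF10DCIS and 312 TPM in MCF10CA1a. Epithelial markers were present in every line: 10 of 11 reached 1 TPM in each, and their summed level was 3371, 2057, 3528 and 3551 TPM in the same order of lines. Structural and small noncoding RNAs took between 57.6% and 66.0% of the TPM, with the highest share in MCF10DCIS. The median difference of all 13108 genes with at least 1 TPM in any line was -0.38 for MCF10DCIS against MCF10A, and -0.07 for each of the other two derived lines. A second scale, called rescaled TPM, leaves out structural, ribosomal protein and mitochondrial RNAs and brings these medians to -0.09 in MCF10DCIS, 0.04 in MCF10AT1 and 0.05 in MCF10CA1a.

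The family was among the most abundant messages of all 4 lines, and a few members carried nearly all of it. The 10 genes summed to 6051 TPM in MCF10A, 5840.4 TPM in MCF10AT1, 13237 TPM in MCF10DCIS and 6929.6 TPM in MCF10CA1a. Of the TPM outside structural, ribosomal protein and mitochondrial RNAs this was 1.76%, 1.86%, 4.97% and 2.23% in that order. MCF10DCIS thus stood well above the other lines, which lay close together. In bulk RNA, more cells with a message and more of it per cell cannot be told apart. S100A2, S100A6, S100A14, S100A11 and S100A16 together made up between 98.6% and 99.5% of the sum in each line. S100A2 alone made up 35.5%, 45.0%, 57.2% and 43.5% from MCF10A to MCF10CA1a. Without S100A2 the sum was 3905, 3214, 5667 and 3914 TPM, so MCF10DCIS was still the highest line.

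**Figure D1:**
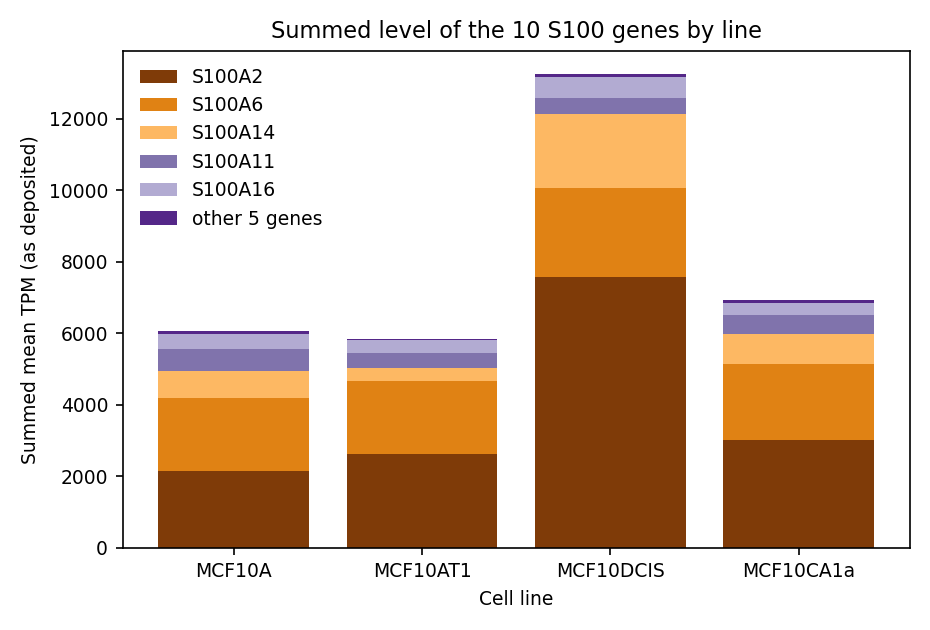
Stacked bars give the summed mean TPM of the 10 S100 genes in each line, as deposited, split into the 5 most abundant genes and the other 5 together. The bar of MCF10DCIS reaches 13237 TPM, and S100A2 is its largest segment.

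**Figure D2:**
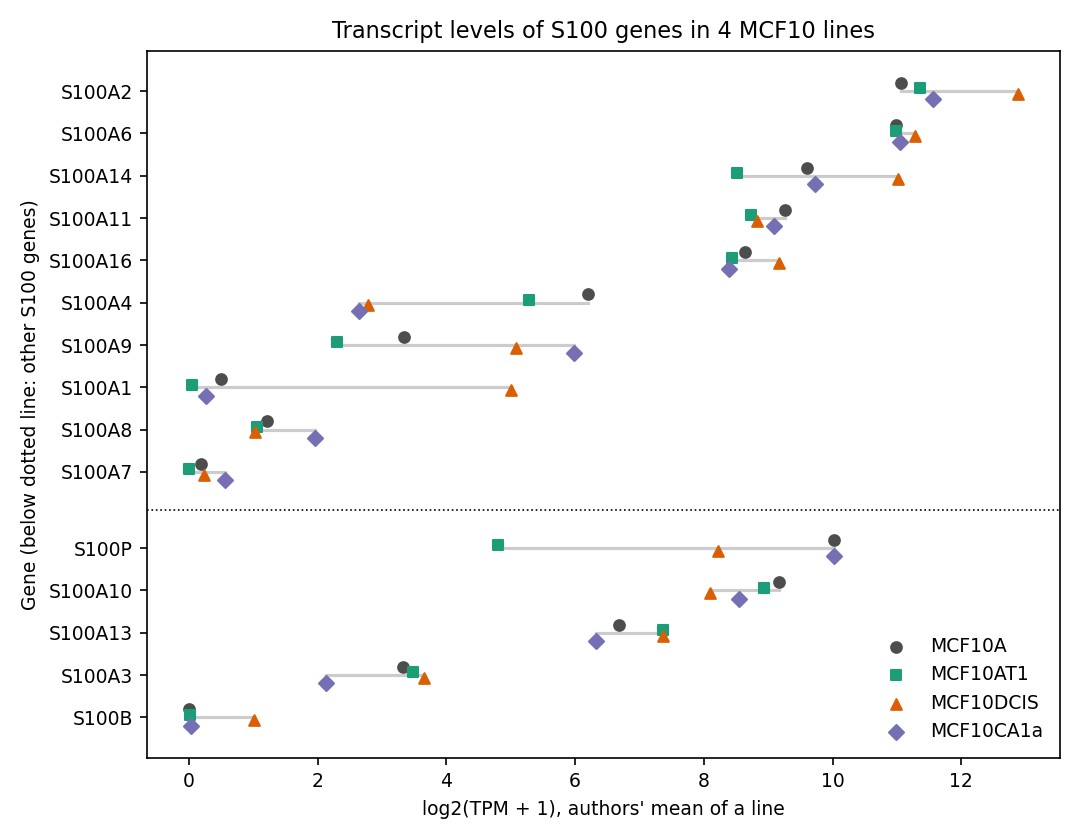
Each point is the authors' mean level of a gene in 1 line, as log2(TPM + 1), with a grey line from the lowest to the highest of the 4 lines. The 10 S100 genes are above the dotted line and the other S100 genes with at least 1 TPM in any line below it; S100A1, S100A4 and S100A9 have the longest grey lines of the 10.

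Among the most abundant members, S100A2 is an epithelial S100 protein of basal and squamous cells and a known target of p53 and p63. It was at 2146 TPM in MCF10A, 2626 TPM in MCF10AT1, 7569.7 TPM in MCF10DCIS and 3016 TPM in MCF10CA1a. MCF10DCIS stood alone at the top, and the other 3 lines lay within 1.5-fold of one another. In MCF10DCIS S100A2 was the most abundant of all 53476 genes outside the structural, ribosomal protein and mitochondrial classes, where it ranked 9 in MCF10A, 6 in MCF10AT1 and 2 in MCF10CA1a. Against MCF10A the log2 difference was 0.29 for MCF10AT1, 1.82 for MCF10DCIS and 0.49 for MCF10CA1a, and only that of MCF10DCIS passed the rule of size. MCF10CA1a was lower than MCF10DCIS by the rule (-1.33), but the difference was -0.82 after quantile normalization, which is short of it. TP63, the gene of p63, was at 0.901, 4.81, 6.22 and 10.7 TPM from MCF10A to MCF10CA1a, and its part in the level of S100A2 was not tested.

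S100A14, a member found mainly in epithelia, ranged the most widely of the abundant members. Its level was 780.0 TPM in MCF10A, 365 TPM in MCF10AT1, 2066 TPM in MCF10DCIS and 851 TPM in MCF10CA1a. MCF10AT1 was the lowest and MCF10DCIS the highest line, with MCF10A and MCF10CA1a close to each other between them. The difference was 2.50 in MCF10DCIS against MCF10AT1, and 1.40 in MCF10DCIS against MCF10A. MCF10AT1 against MCF10A gave -1.09, past the rule of size, and -0.97 with rescaled TPM, short of it. In MCF10AT1 6 of 11 epithelial markers were lower than in MCF10A and 1 was higher, where all genes had 5.87% lower and 3.39% higher. On the rescaled scale the counts were 5 and 2, beside 6.66% and 5.80% of all genes. The part of this in the level of S100A14 was not tested.

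S100A6, also called calcyclin, which binds annexins and the calcyclin-binding protein, was the most even member. It was at 2031, 2035, 2501 and 2111 TPM in MCF10A, MCF10AT1, MCF10DCIS and MCF10CA1a, a ratio of highest to lowest of 1.23. S100A11, a partner of annexin A1 that takes part in keratinocyte growth control, was at 610.1, 424, 455 and 544 TPM in the same order, with MCF10A the highest. S100A16, a widely expressed member, was at 399.9, 347, 574 and 336 TPM, with MCF10DCIS the highest. None of these 3 genes passed the rule of size in any of the 6 pairs of lines on deposited TPM. S100A16 came nearest, at -0.77 in MCF10CA1a against MCF10DCIS and 0.73 in MCF10DCIS against MCF10AT1. It passed the rule under median-of-ratios scaling, at -1.15 and 1.10, and after quantile normalization, at -1.02 and 1.05.

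S100A4, also known as metastasin or fibroblast-specific protein, which binds non-muscle myosin and is studied for its part in cell motility, was the only member lower in both carcinoma lines. It was at 72.6 TPM in MCF10A, 37.9 TPM in MCF10AT1, 5.87 TPM in MCF10DCIS and 5.24 TPM in MCF10CA1a. The level was lower in each later line of the series, with MCF10DCIS and MCF10CA1a nearly equal. Against MCF10A the log2 difference was -0.92 for MCF10AT1, short of the rule, -3.42 for MCF10DCIS and -3.56 for MCF10CA1a. With rescaled TPM these were -0.81, -3.20 and -3.57. Ranked by level among the 53476 genes, S100A4 stood at 7868 in MCF10CA1a and at 809 in MCF10A. S100A3 lies within the span of S100A4 on the same strand without sharing exonic bases, and its level, given with the other S100 genes, was highest in MCF10DCIS. The heavy chain genes MYH9 and MYH10 of non-muscle myosin, a binding partner, were at 101 and 12.1 TPM in MCF10A, and neither passed the rule in any derived line against MCF10A. The fibroblast list, of which 3 of 9 genes had 1 TPM or more in some line, summed to 16.8, 145, 3.72 and 4.47 TPM from MCF10A to MCF10CA1a. DCN made up 134 TPM of the sum in MCF10AT1, and FAP was at 15.8, 7.85, 0.640 and 1.71 TPM, lower than in MCF10A in both carcinoma lines. COL1A1, the third of these genes, was at 0.674, 3.22, 2.78 and 2.58 TPM, higher than in MCF10A in all 3 derived lines. LUM was at 0 in MCF10CA1a and MCF10A. The part of such cells in the level of S100A4 was not tested.

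S100A8 and S100A9 encode calprotectin, a heterodimer that binds zinc and manganese, is abundant in neutrophils and is induced in inflamed epithelia. S100A9 was at 9.19 TPM in MCF10A, 3.95 TPM in MCF10AT1, 32.9 TPM in MCF10DCIS and 62.5 TPM in MCF10CA1a. Both carcinoma lines were above both other lines, and MCF10AT1 was the lowest. Against MCF10A the log2 difference was -1.04 for MCF10AT1, 1.73 for MCF10DCIS and 2.64 for MCF10CA1a, all past the rule. That of MCF10AT1 was near the limit, and at -0.95 under median-of-ratios scaling and -0.91 after quantile normalization it was short of it.

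S100A8 stayed low. It was at 1.33 TPM in MCF10A, 1.09 TPM in MCF10AT1, 1.04 TPM in MCF10DCIS and 2.91 TPM in MCF10CA1a, so the first 3 lines were close and MCF10CA1a the highest. None of its differences on deposited TPM passed the rule, the widest being 0.94 in MCF10CA1a against MCF10DCIS. With rescaled TPM MCF10CA1a was higher than each other line by the rule, by 1.09 against MCF10A, 1.22 against MCF10AT1 and 1.08 against MCF10DCIS. The ratio of S100A9 to S100A8 was 6.91, 3.64, 31.7 and 21.5 from MCF10A to MCF10CA1a. The transcripts of the heterodimer partners were thus unequal in every line, and most so in the carcinoma lines. These ratios rest on the low values of S100A8, near the filter of 1 TPM, and the proteins were not measured here. Markers of myeloid cells, which are rich in calprotectin, were measured beside these genes. Of 11 myeloid markers only CD14 reached 1 TPM, at 11.9, 6.83, 3.38 and 0.224 TPM from MCF10A to MCF10CA1a. The summed level of that list was 12.3 TPM in MCF10A, 7.08 TPM in MCF10AT1, 3.48 TPM in MCF10DCIS and 0.514 TPM in MCF10CA1a. FCGR3B and TYROBP were listed at 0 in all 4 lines, and S100A12, another S100 gene of neutrophils, at 0 in all but MCF10CA1a, where it was 0.0315 TPM. The part of myeloid cells in the levels of S100A8 and S100A9 was not tested.

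S100A7, or psoriasin, an antimicrobial protein of inflamed skin that has also been described in ductal carcinoma in situ, was barely detected. It was at 0.143 TPM in MCF10A, 0 in MCF10AT1, 0.172 TPM in MCF10DCIS and 0.470 TPM in MCF10CA1a. The level in MCF10DCIS, the line of that stage, was close to that in MCF10A. Its neighbour S100A7A has a coding sequence 96.0% identical to it, so reads of the pair may not be told apart. S100A7A had at most 0.00358 TPM in any line. The coding sequence of S100A7 was also 75.2% identical to that of S100A7L2, which was listed at 0 in every line. Between members, the closest pair of coding sequences was S100A2 and S100A4, at 69.0% identity.

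S100A1, best known from heart and skeletal muscle, where it acts on calcium release channels, was the member with the widest range. It was at 0.415 TPM in MCF10A, 0.0373 TPM in MCF10AT1, 31.2 TPM in MCF10DCIS and 0.197 TPM in MCF10CA1a. MCF10DCIS was the single line with an appreciable level, and the other 3 lines were below 1 TPM. The difference was 4.51 in MCF10DCIS against MCF10A, above 99.9% of all genes, and -4.75 in MCF10CA1a against MCF10DCIS. The muscle partners RYR1 and RYR2, the calcium release channels, were below 1 TPM in every line.

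S100A1 overlaps genes on the opposite strand, S100A13 by 235, AL162258.2 by 320 and AL162258.1 by 34 of its 3030 exonic bases. The libraries were stranded, but the setting used to count the strands is unknown. S100A13 was at 102 TPM in MCF10A, 163 TPM in MCF10AT1, 164 TPM in MCF10DCIS and 79.1 TPM in MCF10CA1a. AL162258.2 was at 0.680, 0.716, 0.635 and 0.780 TPM in the same order, and AL162258.1 at 1.09, 1.12, 0.944 and 1.21 TPM. The part of opposite-strand reads in the level of S100A1 was not tested.

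**Figure D3:**
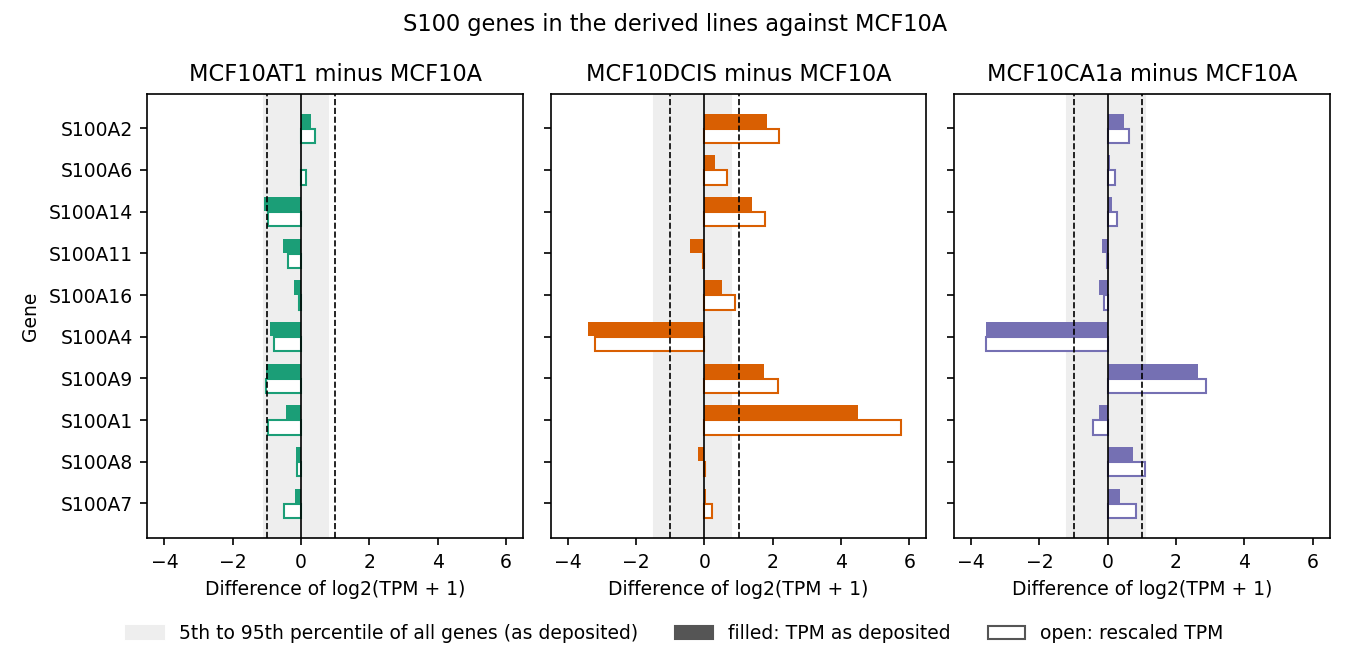
Bars give the difference of log2(TPM + 1) between each derived line and MCF10A for the 10 S100 genes, filled for TPM as deposited and open for rescaled TPM. Dashed lines mark the rule of size and the grey band the 5th to 95th percentile of all genes; S100A1 in MCF10DCIS (4.51) and S100A4 in MCF10DCIS (-3.42) and MCF10CA1a (-3.56) reach farthest.

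Calls were also counted by comparison. In MCF10DCIS against MCF10A 4 of the 10 were higher (S100A1, S100A2, S100A9 and S100A14) and 1 lower (S100A4), while 3.56% of all genes were higher and 14.8% lower. With rescaled TPM the same numbers of members were called, against 7.82% of genes higher and 10.4% lower. MCF10CA1a against MCF10A had 1 higher (S100A9) and 1 lower (S100A4), beside 5.97% and 7.14% of all genes. With rescaled TPM S100A8 joined S100A9, which gave 2 higher and 1 lower beside 9.44% and 7.79% of all genes. MCF10AT1 against MCF10A had 0 higher and 2 lower (S100A9 and S100A14), beside 3.39% and 5.87% of all genes. There the rescaled counts were 0 and 1 (S100A9) beside 5.80% and 6.66% of all genes. The median over the 9 members with at least 1 TPM was -0.45 for MCF10AT1, 0.52 for MCF10DCIS and 0.06 for MCF10CA1a, where all genes had -0.07, -0.38 and -0.07. These 3 comparisons share the MCF10A libraries. The genes were chosen with earlier results of these data known, and S100A1 entered the 9 through its level in MCF10DCIS, so the counts and medians are a description.

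Between the derived lines, MCF10DCIS against MCF10AT1 gave 4 members higher and 1 lower, beside 3.23% and 7.51% of all genes, and these were the 5 called against MCF10A. With rescaled TPM the counts were again 4 and 1, beside 6.60% and 7.46% of all genes. MCF10CA1a against MCF10DCIS gave 0 higher and 3 lower (S100A1, S100A2 and S100A14), beside 6.03% and 1.35% of all genes. With rescaled TPM S100A8 was 1 higher member and the 3 lower ones remained, beside 6.01% and 2.88%. MCF10CA1a against MCF10AT1 gave 3 members past the rule, S100A9 and S100A14 higher and S100A4 lower, where 9.96% of all genes passed it in either direction. With rescaled TPM 4 members passed it, S100A8 being added on the higher side, beside 13.8% of all genes. S100A1, S100A2 and S100A14 thus had their highest level in MCF10DCIS, though the lower call of S100A2 in MCF10CA1a was lost after quantile normalization, as given above. S100A9 and S100A4 differed from MCF10A in the same direction in both carcinoma lines.

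The promoters of the 5 genes called in MCF10DCIS against MCF10A are shown because these genes set the pattern of the family there. Each sequence runs 5′ to 3′ on the gene's own strand, from 250 bases before to 50 bases after the RefSeq start (GRCh38.p14). For S100A2 the upstream of 2 listed starts is shown. Capitals mark matches on either strand to 4 motifs: AP-1 (TGANTCA), the TATA box (TATAAA), the GC box (GGGCGG) and C/EBP (TTGCNNAA).
S100A1, chr1:153628184-153628483, plus strand: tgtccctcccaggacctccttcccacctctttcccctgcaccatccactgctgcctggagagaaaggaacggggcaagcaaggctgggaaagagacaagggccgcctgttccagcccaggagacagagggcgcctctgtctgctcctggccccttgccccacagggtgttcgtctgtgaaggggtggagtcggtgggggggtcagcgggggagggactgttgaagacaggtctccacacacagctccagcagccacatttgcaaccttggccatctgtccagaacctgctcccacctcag
S100A2, chr1:153565795-153566094, minus strand: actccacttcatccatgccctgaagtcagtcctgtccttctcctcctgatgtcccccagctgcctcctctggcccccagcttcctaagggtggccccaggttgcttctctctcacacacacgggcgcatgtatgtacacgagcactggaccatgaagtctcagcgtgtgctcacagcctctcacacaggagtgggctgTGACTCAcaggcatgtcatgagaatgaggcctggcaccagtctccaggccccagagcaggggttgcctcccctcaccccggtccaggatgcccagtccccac
S100A4, chr1:153545757-153546056, minus strand: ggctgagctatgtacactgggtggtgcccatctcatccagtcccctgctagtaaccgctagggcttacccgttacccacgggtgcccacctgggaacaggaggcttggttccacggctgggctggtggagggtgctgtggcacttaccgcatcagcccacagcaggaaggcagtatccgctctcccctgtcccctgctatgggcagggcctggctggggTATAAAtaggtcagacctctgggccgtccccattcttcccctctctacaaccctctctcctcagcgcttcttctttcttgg
S100A9, chr1:153357604-153357903, plus strand: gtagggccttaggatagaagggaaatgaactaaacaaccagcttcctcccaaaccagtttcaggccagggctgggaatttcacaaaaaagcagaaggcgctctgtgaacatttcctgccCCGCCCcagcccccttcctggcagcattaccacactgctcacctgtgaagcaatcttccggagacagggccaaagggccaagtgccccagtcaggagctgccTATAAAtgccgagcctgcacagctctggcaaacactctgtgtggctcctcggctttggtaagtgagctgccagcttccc
S100A14, chr1:153616276-153616575, minus strand: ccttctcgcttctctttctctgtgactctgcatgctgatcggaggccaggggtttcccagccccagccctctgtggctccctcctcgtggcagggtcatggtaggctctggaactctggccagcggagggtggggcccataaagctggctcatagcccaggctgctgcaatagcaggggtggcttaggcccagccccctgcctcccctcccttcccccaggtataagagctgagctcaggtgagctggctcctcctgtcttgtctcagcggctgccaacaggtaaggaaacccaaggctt
S100A2 held the only AP-1 match among the promoters of the 10 genes, TGACTCA, beginning 52 bases before the start. It lay in the window shown, and the window of the other listed S100A2 start matched none of the 4 motifs. Which start is used in these lines is unknown. An AP-1 match was present in 7.71% of all 35116 RefSeq promoter windows of this length. S100A9 and S100A4 held a TATA box, 29 and 31 bases before the start, as did S100A7, 28 bases before it. In S100A8 the same TATA box fell in 2 of 3 overlapping windows, 29 bases before one start and 126 bases before another. Of all windows 11.5% held one. S100A9 also held a GC box, present in 45.0% of all windows, and none of the 5 windows held a C/EBP match, present in 10.5%. The windows of S100A1 and S100A14 matched none of the 4 motifs. These are matches of letters and not shown sites of binding.

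Of the other 11 S100 genes, 5 reached 1 TPM in any line. S100P, a secreted member that lies on chromosome 4 outside the cluster, was at 1041 TPM in MCF10A, 27.0 TPM in MCF10AT1, 297 TPM in MCF10DCIS and 1034 TPM in MCF10CA1a. Its log2 difference against MCF10A was -5.22 for MCF10AT1, -1.81 for MCF10DCIS and -0.01 for MCF10CA1a. S100A10, the light chain of the annexin A2 complex, was at 575, 486, 274 and 374 TPM from MCF10A to MCF10CA1a. The difference of -1.07 in MCF10DCIS was -0.70 with rescaled TPM and so no longer past the rule. S100A3, known from hair cuticle, was at 9.04, 10.1, 11.6 and 3.39 TPM and lower in MCF10CA1a than in each other line by the rule. S100A13, whose levels are given with S100A1, was lower in MCF10CA1a than in MCF10DCIS (-1.05) and in MCF10AT1 (-1.04). In MCF10DCIS against MCF10A its difference was 0.68, and 1.06 with rescaled TPM, which is past the rule. S100B, the glial member, was at 1.01 TPM in MCF10DCIS and at most 0.0188 TPM elsewhere. Of 6 melanocyte and glial markers only MITF reached 1 TPM. S100A5, S100A7A, S100A7L2, S100A12, S100G and S100Z stayed below 1 TPM. None of the 7 fused-type S100 genes, such as that of filaggrin, reached 1 TPM.

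The position of the genes was examined because all 10 members lie on chromosome 1 between 152032506, the start of S100A11, and 153632039, the end of S100A1 (GENCODE 29, GRCh38). S100A8 lies at chr1:153390032-153391188 and S100A9 at chr1:153357854-153361027. Farther along the cluster, S100A4 lies at chr1:153543613-153550136, S100A2 at chr1:153561108-153567890, S100A14 at chr1:153614255-153616986 and S100A1 at chr1:153627926-153632039. Nearby genes differed in opposite directions: in MCF10DCIS S100A4 was lower and S100A2 higher than in MCF10A.

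Genes around the cluster had a higher median than the rest of the genome in MCF10DCIS. On the rescaled scale, the 45 measured genes in the 2 Mb before S100A11 had a median difference from MCF10A of 0.50, and the 49 in the 2 Mb after S100A1 had 0.36, where all genes had -0.09. The 532 genes of chromosome 1 that start after 140 Mb had 0.38 and the 730 before it -0.14. On deposited TPM the flanking medians were 0.14 and -0.01, where all genes had -0.38. In MCF10AT1 the rescaled flanking medians were 0.01 and 0.05, and in MCF10CA1a -0.04 and -0.08. Rescaled differences of S100A1 (5.74), S100A2 (2.19), S100A9 (2.17) and S100A14 (1.77) in MCF10DCIS exceeded the flanking medians, while those of S100A6 (0.67) and S100A16 (0.89) were nearer to them. The part of this stretch in the S100 levels was not tested.

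**Figure D4:**
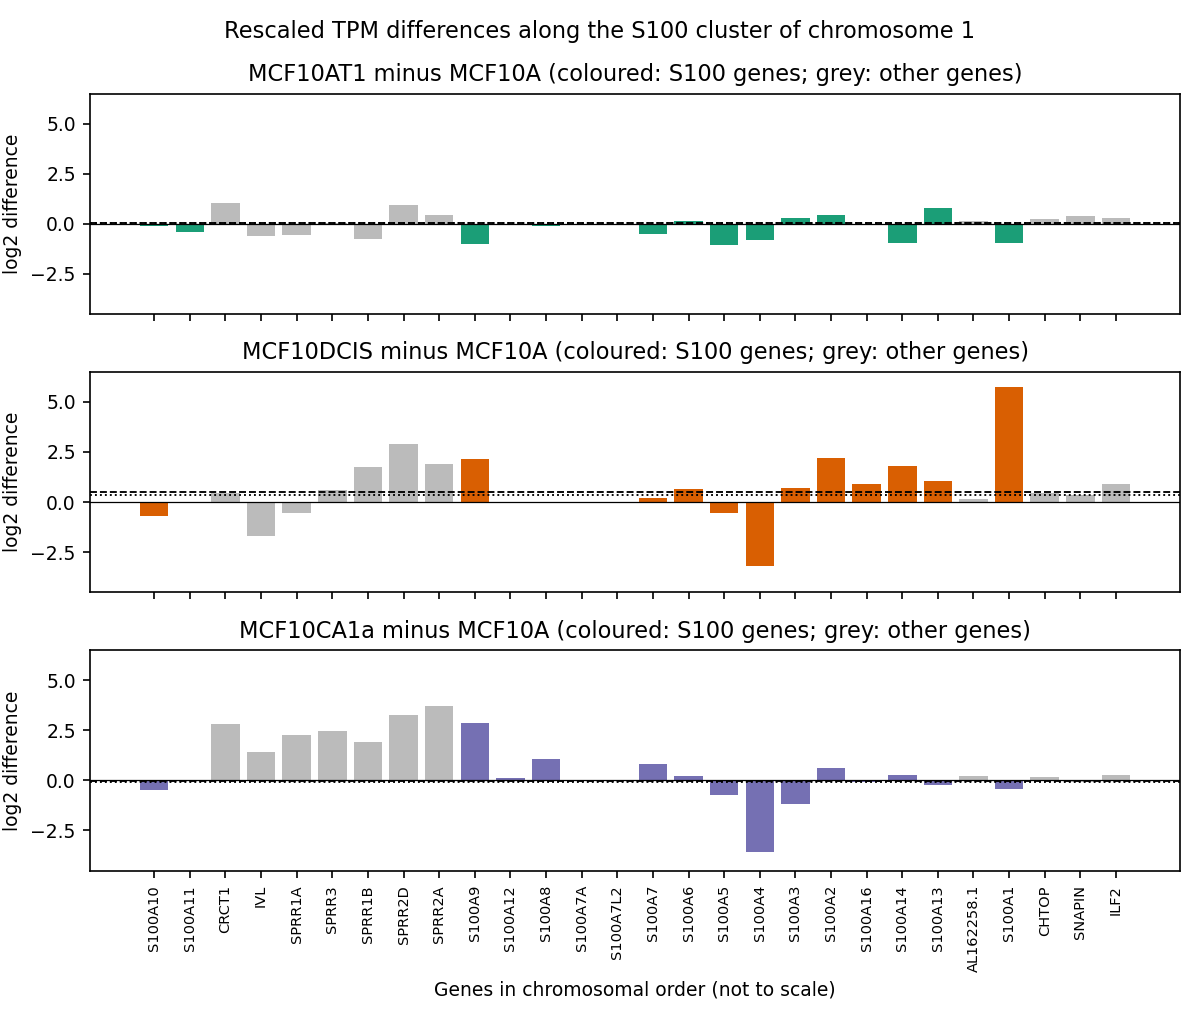
Bars give rescaled differences of log2(TPM + 1) from MCF10A for the genes along the cluster, in chromosomal order and not to scale, with S100 genes coloured and other genes grey. The dashed and dotted lines are the medians of the 2 Mb before and after the cluster, which are 0.50 and 0.36 in MCF10DCIS.

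The cornified envelope genes that lie among the S100 genes were examined next. Of 17 listed genes 16 were in the table and 6 reached 1 TPM, and all 6 were higher in MCF10CA1a than in MCF10A, beside 5.97% of all genes. Their median difference was 1.47, where all genes had -0.07. By line, 2, 2, 3 and 6 of them reached 1 TPM from MCF10A to MCF10CA1a. Some entered the count only through MCF10CA1a, where they were high, so the count and median there are a description. In MCF10DCIS 3 were higher and 1 lower, beside 3.56% and 14.8% of all genes, and in MCF10AT1 0 passed the rule. The small proline-rich genes SPRR2A, SPRR2D and SPRR1B, whose proteins are crosslinked into the envelope, were at 11.1, 10.7 and 14.4 TPM in MCF10CA1a, against 0.609, 0.898 and 3.99 TPM in MCF10A. S100A9 was the member that was also higher in MCF10CA1a.

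Genes that mark inflamed epidermis together with S100A8 and S100A9 differed from MCF10A in both directions. Of 18 listed genes 13 reached 1 TPM, and in MCF10CA1a 9 were higher than in MCF10A and 3 lower, beside 5.97% and 7.14% of all genes. Their median difference was 1.84, where all genes had -0.07. A gene that reached 1 TPM only in MCF10CA1a is among the 9, so the count and median there are a description. The neutrophil chemokine gene CXCL8 was at 188 TPM in MCF10CA1a, against 1.31 TPM in MCF10A. CXCL1, of the same chemokine group, was at 31.6 TPM in MCF10CA1a, against 2.06 TPM in MCF10A, and the serpin gene SERPINB3 at 16.7 TPM against 0.883 TPM. The stress keratin genes KRT6A and KRT16 were lower in MCF10CA1a, at 78.2 and 42.6 TPM, against 488 and 261 TPM in MCF10A. KRT6B, another stress keratin gene, went the other way, at 256 TPM in MCF10CA1a against 70.8 TPM in MCF10A. In MCF10DCIS 4 of the 13 passed the rule upwards and 3 downwards (median 0.13, all genes -0.38), beside 3.56% and 14.8% of all genes. On the rescaled scale 5 and 3 did, beside 7.82% and 10.4%. CXCL8, CXCL1 and KRT6B were higher there, and DEFB1, KRT16 and SLPI lower.

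In MCF10AT1, where S100A9 was lowest, 6 of these 13 genes were lower than in MCF10A, and 1 was higher, beside 5.87% and 3.39% of all genes. The median was -0.47, where all genes had -0.07. PI3, the gene of the elastase inhibitor elafin, was at 1.92 TPM in MCF10AT1, against 50.2 TPM in MCF10A, and SLPI, another protease inhibitor, at 38.4 TPM against 338 TPM. Of 20 cytokines and transcription factors known to act on S100A8 and S100A9 or their neighbours, 17 reached 1 TPM. Against MCF10A, 6 were higher in MCF10CA1a and 1 lower, beside 5.97% and 7.14% of all genes, and on the rescaled scale 8 and 1, beside 9.44% and 7.79%. In MCF10DCIS the counts were 3 and 1, beside 3.56% and 14.8%, and rescaled 5 and 1, beside 7.82% and 10.4%. In MCF10AT1 they were 4 and 0, beside 3.39% and 5.87%. The medians were 0.28 for MCF10AT1, 0.08 for MCF10DCIS and 0.51 for MCF10CA1a, where all genes had -0.07, -0.38 and -0.07. A factor gene that reached 1 TPM only in MCF10CA1a is among the 6 higher there. The 4 higher in MCF10AT1 were IL1A, IL1B, TP63 and CEBPA, all below 1 TPM in MCF10A. They passed the filter only through derived lines, and the 3 higher in MCF10DCIS, IL1A, IL1B and TP63, are among them. The counts and medians of all 3 lines are therefore a description. The interleukin gene IL1B was at 135 TPM in MCF10CA1a, against 0.382 TPM in MCF10A, and IL1A at 75.4 TPM against 0.813 TPM. In MCF10AT1 IL1A and IL1B were at 3.12 and 2.51 TPM, higher than in MCF10A by 1.18 and 1.35, while S100A9 was lower. The part of these cytokines in the level of S100A9 was not tested. The C/EBP factor gene CEBPB and the gene of the cytokine signal transducer STAT3 passed the rule in none of the 3 lines. CEBPA, another C/EBP factor gene, was at 0.548, 2.24, 1.60 and 1.73 TPM from MCF10A to MCF10CA1a. Its difference from MCF10A passed the rule in MCF10AT1 (1.07), and with rescaled TPM in all 3 lines (1.65, 1.44 and 1.34).

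**Figure D5:**
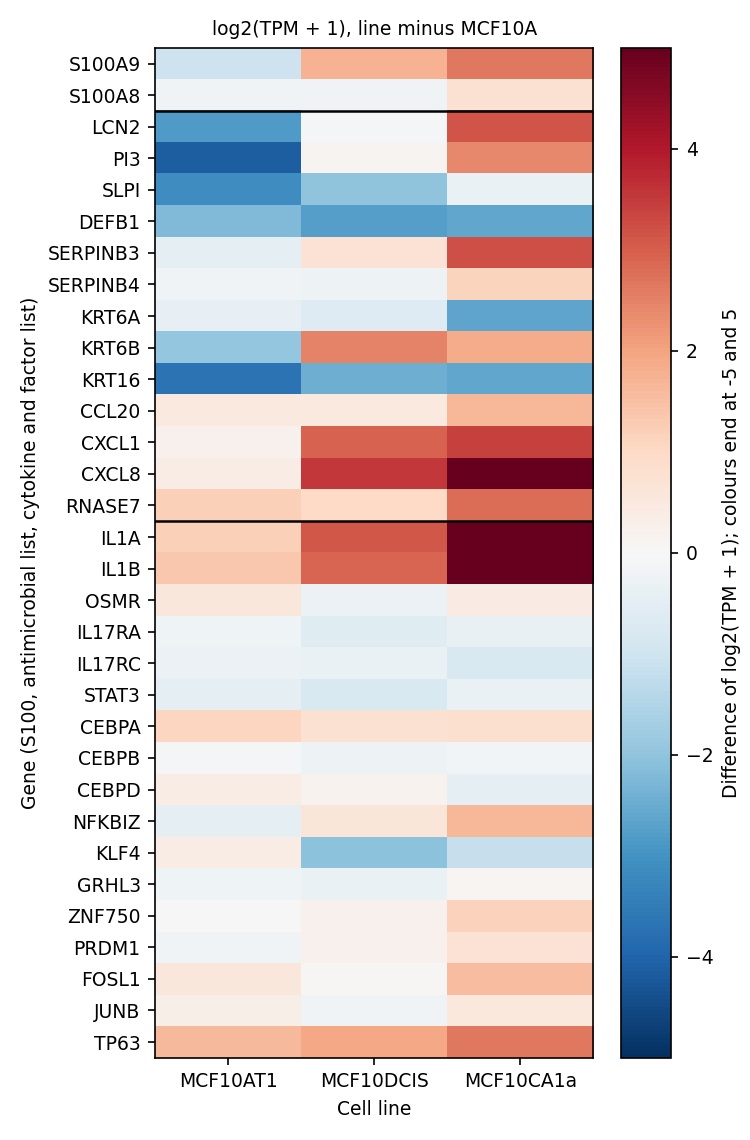
Colours give the difference of log2(TPM + 1) of each derived line from MCF10A for S100A9 and S100A8 (top), the antimicrobial list (middle) and the cytokine and factor list (bottom), for genes with at least 1 TPM in any line. S100A9 runs from -1.04 in MCF10AT1 to 2.64 in MCF10CA1a, and IL1A, IL1B and CXCL8 lie past the end of the colour scale in MCF10CA1a.

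Receptors and partners of the S100 proteins were examined last among the lists. AGER, the gene of the receptor RAGE, was below 1 TPM in every line but near it, at 0.981, 0.993, 0.710 and 0.983 TPM from MCF10A to MCF10CA1a. TLR4 was at 4.86 TPM in MCF10AT1 and 4.56 TPM in MCF10CA1a, against 1.11 TPM in MCF10A, both past the rule, and at 1.53 TPM in MCF10DCIS, which was not. BSG, the gene of basigin, a receptor for S100A9, was at 314, 278, 185 and 236 TPM from MCF10A to MCF10CA1a and passed the rule in none of the derived lines, nor did NPTN and ALCAM. Of 13 intracellular partners 11 reached 1 TPM. In MCF10AT1 2 of them were higher than in MCF10A and 0 lower, beside 3.39% and 5.87% of all genes. In MCF10DCIS 1 was higher and 2 were lower, beside 3.56% and 14.8%, so the share lower was near that of all genes, and with rescaled TPM 2 were higher and 0 lower, beside 7.82% and 10.4%. In MCF10CA1a 1 was higher and 0 were lower, beside 5.97% and 7.14%. ANXA6, the gene of annexin A6, was at 3.46 TPM in MCF10AT1 and 2.43 TPM in MCF10DCIS, both higher by the rule, against 0.0770 TPM in MCF10A. It was at 0.348 TPM in MCF10CA1a, so it passed the filter only through the lines where it is called higher. The partner counts of MCF10AT1 and MCF10DCIS include it and are a description. FABP5, the gene of a fatty acid carrier bound by S100A7, was at 35.9 TPM in MCF10AT1 and 57.5 TPM in MCF10CA1a, against 16.2 TPM in MCF10A. ANXA1, the partner of S100A11, was at 199 TPM in MCF10DCIS, against 497 TPM in MCF10A, a difference of -1.31 that was -0.95 with rescaled TPM. ANXA2, the partner of S100A10, was at 1658, 1528, 2429 and 1701 TPM from MCF10A to MCF10CA1a, with MCF10DCIS the highest line, whereas S100A10 was lowest there.

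Other genes with patterns most like those of S100A1, S100A9 and S100A4, the members with the widest range, were sought among 4033 genes that ranged over at least 1 log2 unit. Likeness was the root mean square distance between the differences of 2 genes from MCF10A in the 3 derived lines. Nearest to S100A1 was the cyclin gene CCND2 at a distance of 0.47, which was at 13.9 TPM in MCF10DCIS and at most 0.0168 TPM in the other lines, followed by CD74 (0.80) and AC008982.1 (0.97). S100A9 had ALDH1A3 (0.30), SYCP2 (0.31) and EREG (0.33) as nearest genes. The retinal dehydrogenase gene ALDH1A3 was at 69.1, 24.7, 188 and 466 TPM from MCF10A to MCF10CA1a, and EREG, of the EGF receptor ligand epiregulin, at 8.44, 2.67, 25.6 and 42.9 TPM. S100A4 had NEBL (0.11), PLCD1 (0.27) and JPH2 (0.29). NEBL, of the actin-binding protein nebulette, was at 15.4, 8.42, 0.519 and 0.532 TPM. Each likeness rests on 4 mean values, and no gene of these 9 lies on chromosome 1.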

How the data were processed

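Total RNA of 12 libraries, 3 per line, was sequenced with a stranded kit, per the labels. STAR and edgeR are named and the build is hg38, per the submitters' processing notes. Their versions, the annotation and the counting tool with its strand setting were unstated in the sources used. TPM values were deposited as 1 table with the authors' mean per line. Because only means were at hand, limma, leaving out replicates and other library-based tests named in the plan were not run. Differences were taken as log2(TPM + 1), which understates changes of low genes, with a filter of at least 1 TPM in any line and a 2-fold rule of size. Short transcripts such as those of S100 genes depend on how TPM was corrected for length. Rescaled TPM was set to a total of 1000000 without structural, ribosomal protein and mitochondrial RNAs. The members and lists were chosen with earlier results of these data known. All 10 members are described. From other lists the plan was to name at most 3 higher and 3 lower genes with at least 10 TPM, and receptors and partners freely. Some marker, keratin and factor genes were named outside that limit, such as COL1A1, LUM, FCGR3B, TYROBP, KRT6B, CEBPA, CEBPB and STAT3. Genes of like pattern were the 3 nearest to each of the 3 members with the widest range. The call rule was also run on copies of the MCF10A values with known folds past the rule and no noise. That outcome was fixed in advance, so it checks the code and gives no error rate of the calls. Alternatives were a pseudocount of 0.1, no filter or a filter of 5 TPM, a 1.5-fold rule, rescaled TPM, median-of-ratios scaling and quantile normalization. Promoters came from RefSeq, positions from GENCODE 29. Python 3.11.15, pandas 2.3.3, NumPy 2.4.6, Biopython 1.88 and matplotlib 3.10.9 were used.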

Additional observations from a re-analysis of the deposited data

Results flagged for a closer look

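S100A9 was higher in MCF10DCIS and in MCF10CA1a but lower in MCF10AT1, each against MCF10A, and the gap between its differences was 2.77 for MCF10DCIS and 3.68 for MCF10CA1a. S100A14 was higher in MCF10DCIS and lower in MCF10AT1, each against MCF10A, with a gap of 2.50. These were singled out because derived lines differed in opposite directions from the same parent line, whose values they share. The opposite directions were not tested, since only 1 mean per line was used. For S100A9 the lower call in MCF10AT1 was lost under 2 scalings, and for S100A14 with rescaled TPM.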

How the results depend on the processing

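Of the 60 member differences over the 6 pairs of lines, 20 passed the rule of size, and none of these changed sign. Under each of the 7 alternatives that retained the gene, 17 of them still passed. Only rescaled TPM, median-of-ratios scaling and quantile normalization could lose a call. A smaller pseudocount, a changed filter and a looser rule could not lose one of a retained gene. The exceptions were S100A9 and S100A14 in MCF10AT1 against MCF10A and S100A2 in MCF10CA1a against MCF10DCIS. For MCF10AT1 against MCF10A the 2 called members became 1 with rescaled TPM, 1 under median-of-ratios scaling and 1 after quantile normalization. For MCF10CA1a against MCF10DCIS a 1.5-fold rule gave 6 called members in place of 3. A pseudocount of 0.1 gave 5 in place of 3 for MCF10CA1a against MCF10AT1, adding S100A1 and S100A8, both low in these lines. The summed level with rescaled TPM became 17596, 18572, 49745 and 22278 from MCF10A to MCF10CA1a, by the construction of that scale. S100A8 was lower in MCF10DCIS than in MCF10A by -0.19 on deposited TPM and higher by 0.01 with rescaled TPM. No filter on low values, and a filter of 5 TPM, which left out S100A7 and S100A8, moved none of the counts past 1.5 times. Leaving out each library was not run. No paired analysis was possible because the table holds 1 mean per line and no values per replicate. The unknown depth limits above all the values of S100A7, S100A8 and S100A12.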
